A study of Drosophila melanogaster with 2 samples.

Results

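The 10 genes Chro, Cp190, Dref, M1BP, BEAF-32, CTCF, su(Hw), pita, Trl and ZIPIC encode DNA-binding or chromatin-associated proteins of insulators and promoters in Drosophila melanogaster. They were taken by symbol from the 18164 annotated genes of the main chromosome arms, and all 10 were found among the 13945 protein-coding ones. Binding of the protein CG33017 at these genes was read from ChIP-seq peak lists (chromatin immunoprecipitation followed by sequencing). The chromatin came from whole adult male flies of unknown age, from 1 transgenic line that carries CG33017 with GFP (green fluorescent protein) at its C-terminus. The labels' description gives an antibody against GFP, while their antibody field names CG33017, and the description is followed here. Were the antibody against CG33017 itself, the peaks could also hold the untagged protein. The samples were biological replicates 1 and 2 of this single group. Both replicates were set against the same control alignment, and an untagged line was not analysed here. Below, bound means only that a peak is listed.

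Insulator proteins bind DNA between regulatory domains and limit which enhancers act on which promoters, and they also help to fold chromosomes into domains. In flies many of the same proteins bind close to the start sites of housekeeping genes, where boundaries between domains often lie. Zinc finger proteins such as CTCF, su(Hw), pita, ZIPIC and BEAF-32 contact DNA, and Cp190, a BTB and zinc finger protein, is a cofactor that several of them bring to insulators. Chro (Chromator), a chromodomain protein, is found in the open interbands of polytene chromosomes. Dref binds the DNA replication-related element (DRE) in promoters, M1BP binds core promoter motif 1, and Trl encodes the GAGA factor, which binds GAGAG repeats at promoters.

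CG33017 peaks lay at the promoters of 6 of the 10 genes, and 4 of those peaks were among the 500 strongest in the genome-wide list. A gene was counted as bound at its promoter when a peak summit lay within 500 bp of any of its transcription start sites (TSSs). In the list that passed the authors' threshold on the irreproducible discovery rate (IDR, 4867 peaks), Chro, Cp190, Dref, M1BP, BEAF-32 and Trl met this rule, where 23.8% of all protein-coding genes did. The share was 28.5% among the protein-coding genes as long as these 10, which span 1631 to 13121 bp. The 4 peaks among the 500 strongest were those of Chro, Cp190, Dref and M1BP, with M1BP the lowest at rank 465. A promoter peak at least as high as that of M1BP was found for 421 of the 13945 protein-coding genes, these 4 included. The pooled list of 30000 peaks placed a promoter summit at 9 of the 10 genes, against 61.3% of protein-coding genes. The lists of replicate 1 and replicate 2, of 30000 peaks each, placed one at all 10, where 61.0% and 59.2% of protein-coding genes had one. A promoter summit was thus common in the long lists and less common in the IDR list, both for these genes and for all protein-coding genes. The genes were listed with results of these data known, so these counts were not tested.

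**Figure D1:**
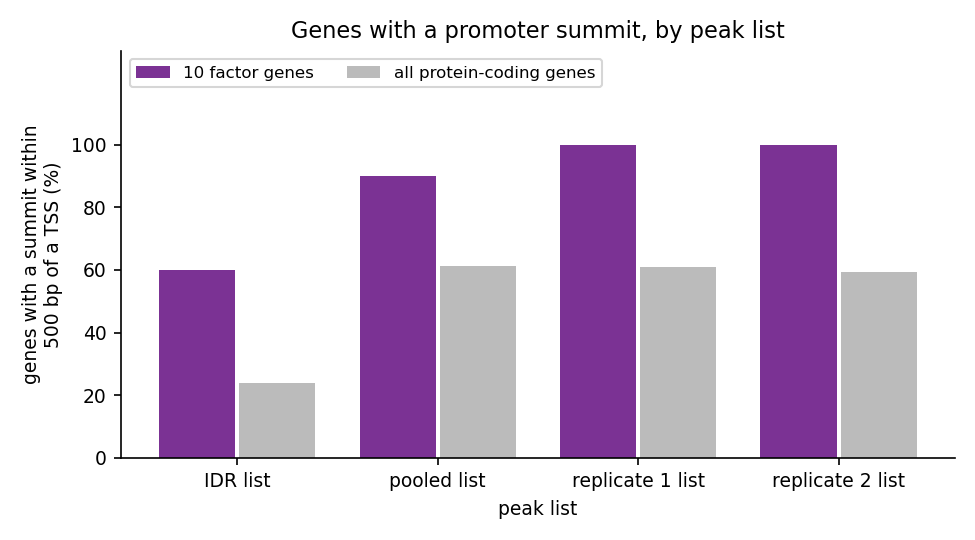
Percentage of genes (vertical axis) with a peak summit within 500 bp of a TSS in each of the 4 peak lists (horizontal axis), for the 10 factor genes (purple) and for all 13945 protein-coding genes (grey). Bars have no error because each is a single count, and the factor genes stand at 6 of 10 in the IDR list against 23.8% of all protein-coding genes.

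Counting the whole gene and 2 kb on each side, 7 of the 10 genes held an IDR summit, with pita added to the 6, against 39.1% of protein-coding genes and 44.6% of those of the same length range. In the pooled list and the lists of replicates 1 and 2 all 10 genes had at least 1 summit in this wider region, as did 80.3%, 78.5% and 80.5% of protein-coding genes. The region of the 10 genes held 13 IDR peaks, 44 pooled peaks, 53 peaks of replicate 1 and 42 peaks of replicate 2. Of the 13 IDR summits, 5 lay in introns, 5 in 5' UTRs, 3 in intergenic DNA and 0 in coding sequence, and 9 of the 44 pooled summits lay in coding sequence. These classes were not counted over all peaks of either list, so the difference is not shown to be particular to these genes. A class could come from any gene at the summit, with 5' UTR placed before coding sequence. The intron at the BEAF-32 summit of rank 1432 was that of a neighbour, asRNA:CR42254. The 5' UTRs at the BEAF-32 summit of rank 3757 and at the pita summit were those of the neighbours Spred and wmd. The number of reads behind the lists is unknown here, and equal list lengths show no depth.

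Chro had the strongest promoter peak of the 10 genes. The signal of its IDR peak (chr3L:22878707-22879074) was 1562 and its rank was 38 of 4867, where signal is the authors' own value for a peak and ranks run from the highest signal down. The peak ranked 35 in replicate 1 with a signal of 820 and 39 in replicate 2 with a signal of 735. Its summit lay in the 5' UTR of Chro, 79 bp downstream of a Chro TSS and 184 bp upstream of the TSS of Ssl1, which runs the other way and encodes a subunit of the transcription factor TFIIH. Only 40 of the 3314 protein-coding genes bound in the IDR list had a promoter peak as high as that of Chro, Chro itself included.

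Cp190 followed with a signal of 986 and a rank of 108 (chr3R:15275206-15275573). The peak ranked 117 and 101 in replicates 1 and 2, with signals of 488 and 498. Its summit lay in intergenic DNA, 139 bp upstream of Cp190 and 142 bp upstream of CG4338, almost midway between these oppositely transcribed genes. The summits of both replicates fell within 12 bp of it.

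Dref and M1BP carried peaks of nearly equal height, again between oppositely transcribed genes. The Dref peak (chr2L:9967168-9967456) had a signal of 459 and a rank of 447, with ranks of 473 and 404 and signals of 229 and 239 in replicates 1 and 2. Its summit lay 72 bp upstream of Dref but only 12 bp upstream of RpL13, a ribosomal protein gene of the large subunit. The M1BP peak (chr3R:8731894-8732096) had a signal of 451 and a rank of 465, with ranks of 446 and 513 and signals of 237 and 212 in replicates 1 and 2. Its summit lay 267 bp upstream of M1BP and 126 bp upstream of CG8202, and both replicates placed it within 1 bp. At Dref and M1BP the nearest TSS was therefore that of the neighbour, and the peak lists cannot tell which gene of a pair the binding belongs to.

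The DNA under the strongest summits is shown for Chro, Cp190, Dref and M1BP, which have the strongest promoter peaks of the 10 genes, and for the strongest peak in Trl, on the strand of each gene, 5′ to 3′, from the NCBI release 6 sequence, which matches dm6. Capitals mark matches to the short cores searched below, other than the E-box, on either strand. Stretches at Cp190, M1BP and Trl are centred on the summit, the one at Dref starts just outside the RpL13 TSS, and the one at Chro is limited to 30 bases because its summit lies in a UTR.
Chro, chr3L:22878891-22878920, minus strand: actggactgcagttagtttaaagcTATCGa
Cp190, chr3R:15275320-15275440, minus strand: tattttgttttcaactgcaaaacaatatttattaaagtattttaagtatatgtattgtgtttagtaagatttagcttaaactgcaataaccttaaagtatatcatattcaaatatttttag
Dref, chr2L:9967241-9967312, minus strand: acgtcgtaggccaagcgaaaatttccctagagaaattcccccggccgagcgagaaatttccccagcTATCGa
M1BP, chr3R:8731905-8732025, minus strand: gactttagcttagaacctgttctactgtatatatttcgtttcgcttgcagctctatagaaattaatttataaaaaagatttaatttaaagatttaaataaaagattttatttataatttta
Trl, chr3L:14759448-14759568, minus strand: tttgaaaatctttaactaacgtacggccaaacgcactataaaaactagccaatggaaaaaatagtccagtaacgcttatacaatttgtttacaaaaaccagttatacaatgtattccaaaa

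These stretches differ in make-up. The Cp190 and M1BP sequences were runs of A and T, with 21.8% and 20.8% G and C within 50 bp of the summit. The Dref sequence was richer in G and C, at 47.5%. The capitals at Chro and Dref are CGATA read on the other strand, the core shared by the sites of BEAF-32 and Dref, and no capital fell in the Cp190, M1BP or Trl stretches.

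The order of the 10 genes by their highest promoter peak was largely the same in both replicates. Chro stood first and Cp190 second in each list. Dref and M1BP changed places between replicates, as did BEAF-32 and Trl, so neither pair can be ordered beyond the spread of the replicates. pita stood above su(Hw) in both replicates but below it in the pooled list. BEAF-32 had a promoter peak of rank 1432 in the IDR list and 1715 and 1454 in replicates 1 and 2. The highest promoter peak of Trl ranked 1599 in the IDR list and 1223 and 1721 in replicates 1 and 2. The promoter peaks of su(Hw), pita, CTCF and ZIPIC fell outside the IDR list.

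**Figure D2:**
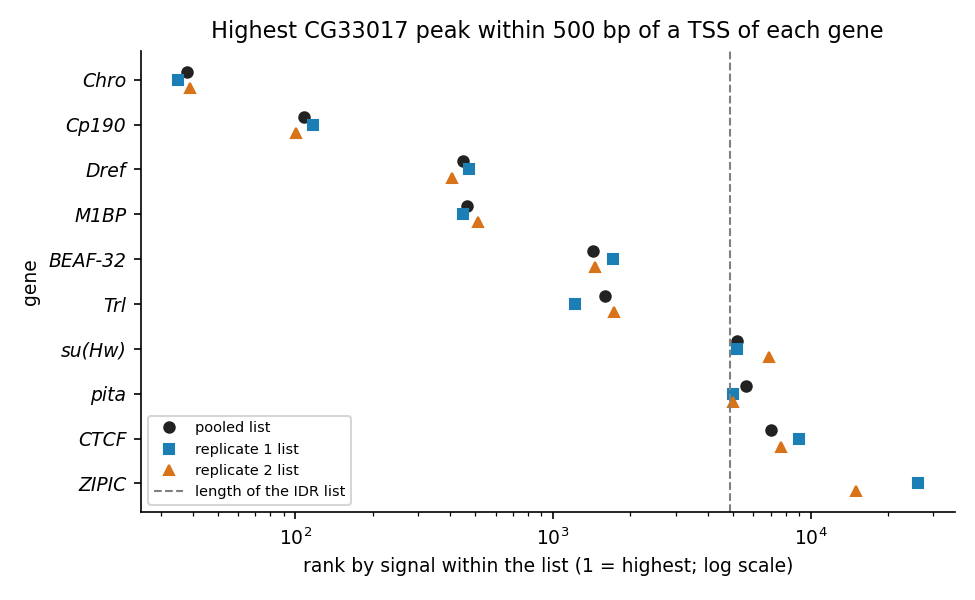
Rank by signal (horizontal axis, log scale, 1 is the highest) of the highest peak within 500 bp of a TSS of each gene (vertical axis) in the pooled list and in the lists of replicates 1 and 2; the dashed line is the length of the IDR list. Chro ranks 38, 35 and 39 in the pooled, replicate 1 and replicate 2 lists, and ZIPIC has no such peak in the pooled list.

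A second gene starting close by on the other strand was frequent among these genes. Within 500 bp upstream of the outermost TSS, 6 of the 10 had a TSS on the other strand, as did 28.4% of protein-coding genes. These were Chro with Ssl1 at 105 bp, Cp190 with CG4338 at 281 bp, Dref with RpL13 at 84 bp, M1BP with CG8202 at 393 bp, BEAF-32 with the antisense RNA asRNA:CR42254 at 199 bp, and su(Hw) with Polr2I, a gene for an RNA polymerase II subunit, at 500 bp. Of these 6, all but su(Hw) had an IDR promoter summit, against 41.1% of protein-coding genes with such a neighbour. Of the 13 IDR summits at the 10 genes, 9 lay within 500 bp of a TSS of another gene, and at 5 the nearest TSS was another gene's. Summits of the whole IDR list were not counted in this way, so these numbers have no genome-wide share beside them. Genes of such a pair share 1 peak and are not independent in these counts.

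Trl held more IDR peaks than any other of the 10 genes and the strongest of their 13. Its 5 IDR summits lay within 4224 bp, spaced by 867 to 1240 bp. At least 5 IDR summits in or within 2 kb of the gene were found for 1.18% of protein-coding genes, and for 0.532% of those of 1631 to 13121 bp. Trl itself spans 13121 bp and sets the upper limit of that range, so the range holds no longer gene and is not a length match for Trl. Of the 29 other factor genes described below, 3 also had at least 5. The strongest summit in Trl (chr3L:14759290-14759744) had a signal of 2032 and a rank of 12, with ranks of 17 and 11 and signals of 1019 and 1022 in replicates 1 and 2. It lay in an intron of Trl, 1541 bp downstream of the outermost of 4 annotated TSSs, and no TSS of any gene lay within 500 bp. No other gene body covered it.

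The other Trl summits were weaker and lay on both sides of the strongest. The next by signal (chr3L:14756092-14756320) had a signal of 352 and a rank of 696 at 1185 bp downstream of the nearest TSS, in an intron, so the strongest was 5.77-fold above it. A summit with a signal of 216 and a rank of 1599 lay 113 bp downstream of an inner TSS, in the 5' UTR. Another, with a signal of 204 and a rank of 1730, lay 306 bp upstream of an inner TSS. The weakest of the 5, with a signal of 133 and a rank of 3413, lay 674 bp downstream of the outermost TSS. CG42507, which is annotated on the same strand within Trl, shares 3 of these summits by its body or its TSS, while the strongest summit lies outside it.

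**Figure D3:**
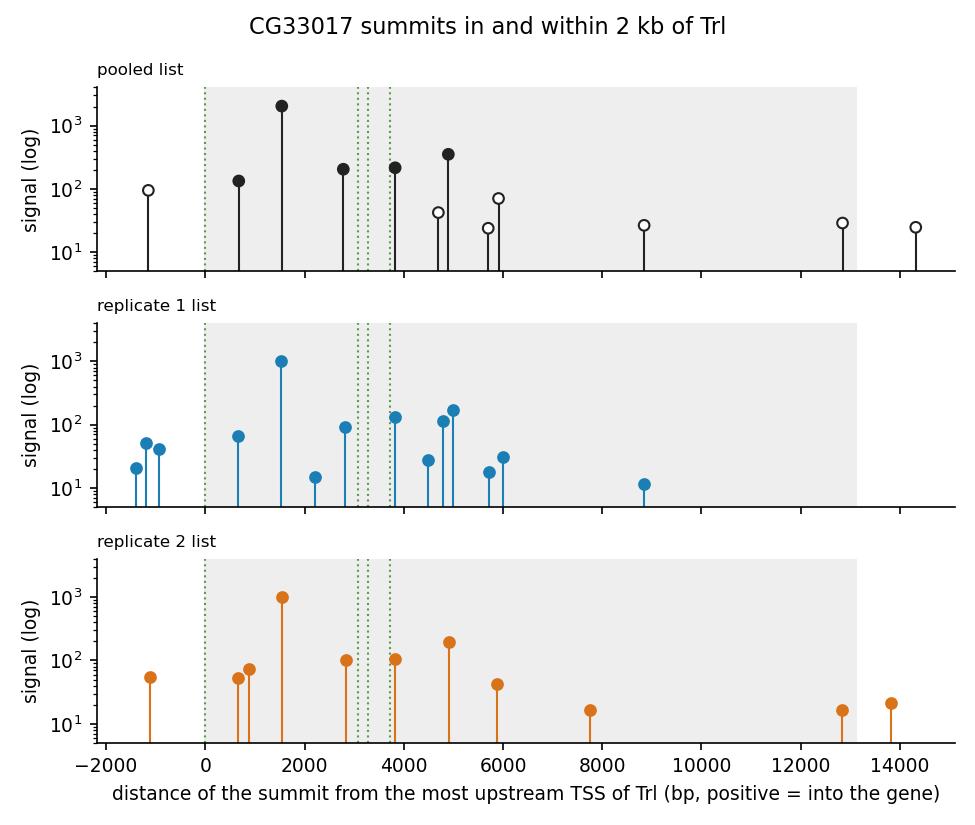
Signal (vertical axes, log scale) of each summit in and within 2 kb of Trl, by distance from its outermost TSS (horizontal axis, bp), in the pooled list (filled points are IDR peaks), in replicate 1 and in replicate 2; grey marks the gene body and dotted lines its 4 TSSs. The highest point in each panel has a signal of 2032, 1019 and 1022 in that order, and the weaker points differ in number between the replicates.

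Replicates differed more at the weaker Trl sites. The site of IDR rank 696 was a single peak of rank 602 in replicate 2. In replicate 1 the overlapping peak ranked 1530, and a separate peak of rank 777 lay beside it. Trl had 12 pooled peaks, 14 peaks in replicate 1 and 11 in replicate 2. Upstream of the gene the pooled list held a peak of rank 5580, at 1148 bp from the TSS, in a 5' UTR near the neighbours Mgat4a and Tsen34, which ranked 5598 and 4876 in replicates 1 and 2.

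BEAF-32 held 3 IDR summits within 1882 bp, a number that 5.34% of protein-coding genes reached or passed and that Trl also passed. BEAF-32 starts from 3 annotated TSSs, and its protein isoforms differ in the DNA-binding end. The highest peak (chr2R:14770179-14770582) had a signal of 230 at 88 bp upstream of the outermost TSS. The second (chr2R:14771060-14771463) had a signal of 185 and a rank of 2036 at 39 bp upstream of an inner TSS, and ranked 1789 and 2545 in replicates 1 and 2. Both also lay within 500 bp of the TSS of asRNA:CR42254, which runs the other way. The third (chr2R:14769178-14769581) had a signal of 125 and a rank of 3757, and lay 1089 bp upstream of BEAF-32 and 43 bp into Spred, a neighbour on the other strand. By the strongest overlapping peak it was the least alike between replicates of the 13, with ranks of 2022 and 8323 in replicates 1 and 2. Replicate 1 had a second overlapping peak there, of rank 9307, with its summit 1027 bp upstream of BEAF-32. That summit lay closer to the IDR summit than the one of rank 2022, so the difference in rank depends on which peak is matched.

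For pita the only IDR summit was not at its own promoter. It lay 3460 bp downstream of its nearest pita TSS and past the 3' end (chr2R:23547889-23548292, signal 168, rank 2367). That position is 148 bp upstream of levy, a gene for a cytochrome c oxidase subunit, and 60 bp into the neighbouring gene wmd. At pita itself the replicates placed their highest promoter peak at different TSSs. In replicate 1 it lay 61 bp downstream of the outer TSS with a rank of 4999. In replicate 2 it lay 358 bp downstream of the inner TSS, within the span of Dcp-1, with a rank of 4984. The pooled list had a peak of rank 5610 at the inner TSS and one of rank 10130 at the outer TSS.

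The peaks of su(Hw) and CTCF were outside the IDR list but present in both replicates. The highest su(Hw) peak (chr3R:14308747-14309150) had a pooled signal of 100.6, just under the lowest signal of the IDR list, 105.1. It ranked 5192 in the pooled list and 5193 and 6907 in replicates 1 and 2. Its summit lay 360 bp upstream of su(Hw) and 140 bp from the TSS of Polr2I. The highest CTCF peak (chr3L:7356608-7357011) had a pooled signal of 80.1 and a rank of 7009, with ranks of 9017 and 7710 in replicates 1 and 2. It lay 97 bp upstream of the only annotated CTCF TSS.

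ZIPIC had the weakest signal. Its only pooled peak (chr3R:30035708-30036111) ranked 28914 of 30000, with a signal of 23.9, and lay in coding sequence 960 bp downstream of the TSS. Near the TSS replicate 2 had its highest peak, of rank 14978, at 161 bp upstream, where replicate 1 listed none. Replicate 1 had a peak of rank 26075 at 308 bp downstream, which overlapped a second peak of replicate 2, of rank 23475, at 468 bp downstream.

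**Figure D4:**
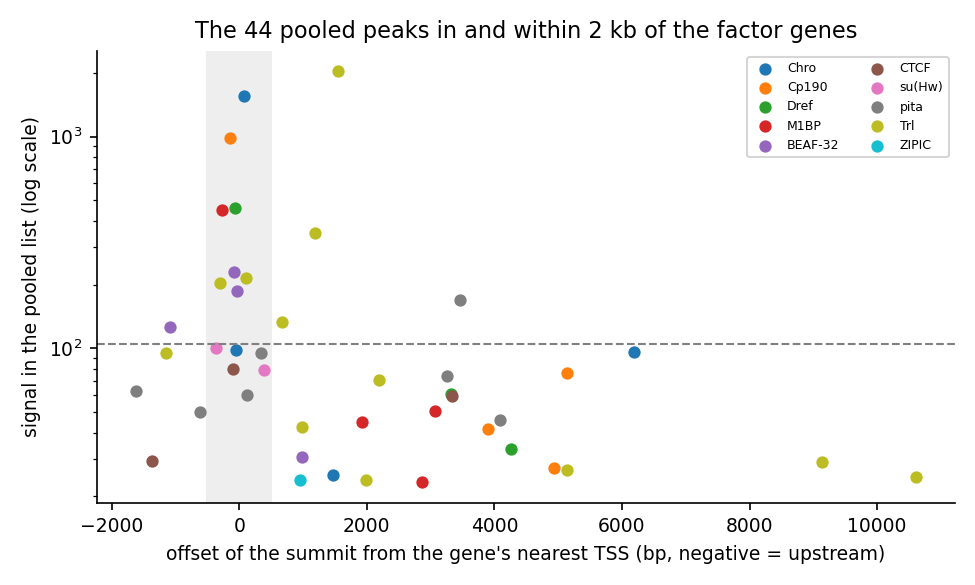
Signal in the pooled list (vertical axis, log scale) of the 44 peaks in and within 2 kb of the 10 genes, by offset from the gene's own nearest TSS (horizontal axis, bp, negative is upstream); grey marks 500 bp each side of a TSS and the dashed line the lowest signal of the IDR list, 105.1. The 13 points above the line include Trl at 2032 and Chro at 1562, and most peaks far inside or downstream of genes lie below it.

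Summit positions were reproducible for most of the 13 IDR peaks. Both replicates had an overlapping peak at each of them, and the strongest overlapping peak of each replicate was compared. At 9 of the 13 both replicate summits lay within 100 bp of the IDR summit. The other 4 were the weakest peaks of Trl and BEAF-32, the Trl peak of rank 696 and the peak beside pita, with one replicate summit between 103 and 201 bp away. At the weakest Trl peak a second overlapping peak of replicate 2, of rank 5263, had its summit closer, within 100 bp of the IDR summit. The same held at the weakest BEAF-32 peak for a second peak of replicate 1, of rank 9307. At 12 of the 13 the peak ranked within the first 4867 of both replicate lists. Since the IDR list was built from the same replicates, this is a description and not independent support.

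Windows of 100 bp each side of the 13 IDR summits were searched on both strands for short cores of the proteins' own binding sites. CGATA, the core of BEAF-32 and Dref sites, was in 6 of the 13 windows, where 30.9% of all IDR windows and 39.4% of windows centred on the outermost TSS of protein-coding genes held it. GAGAG, the core bound by the GAGA factor, was in 3 windows, against 27.1% of IDR windows and 22.5% of promoter windows. Of those 3, 2 were in Trl itself, at the summits of rank 1730 and 3413, and the third lay beside Spred.

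ATCGAT, the centre of the DRE, was in 2 windows, at Dref and beside pita, against 9.51% of IDR windows and 18.9% of promoter windows. ATCGAT overlaps CGATA where an A follows it or a T precedes it. The full palindrome TATCGATA, a choice added after seeing the data, was in 1 window, the one beside pita, against 3.25% and 7.84%. GGTCACA, from motif 1, was in 1 window (IDR 3.82%, promoters 8.25%), beside Spred, and not in the window at M1BP. AGGGNTG, taken as the ZIPIC core, was in 1 window, at M1BP (IDR 7.52%, promoters 8.12%). TGCATA, from the su(Hw) site, and GGNGGCG, from the CTCF site, were in 0 of the 13, where 12.8% and 5.92% of IDR windows had them. The E-box CANNTG was in 6 of the 13, against 59.9% of IDR windows and 63.7% of promoter windows. In 5 of the 13 windows none of the cores other than the E-box was found, among them the strongest in Trl and the one at Cp190. The Cp190 window held an E-box, and the strongest Trl window did not. A match is a run of letters and not evidence of binding by the named factor.

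The summits lay on DNA poor in G and C. Within 50 bp of the 13 summits GC content ranged from 20.8% to 47.5% with a median of 32.7%. Windows 400 bp away on each side had 33.7% to 57.4% and a median of 45.5%. GC content was lower at the summit at 11 of the 13, the exceptions being the Trl summits of rank 1599 and 1730. The mean at the 13 summits was 33.8%, against 35.7% over all IDR summits. The flanks were matched neither for distance from a TSS nor for annotation. Flanks of the other IDR summits were not measured, so the lower GC content at the summit is not shown to be particular to these genes.

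**Figure D5:**
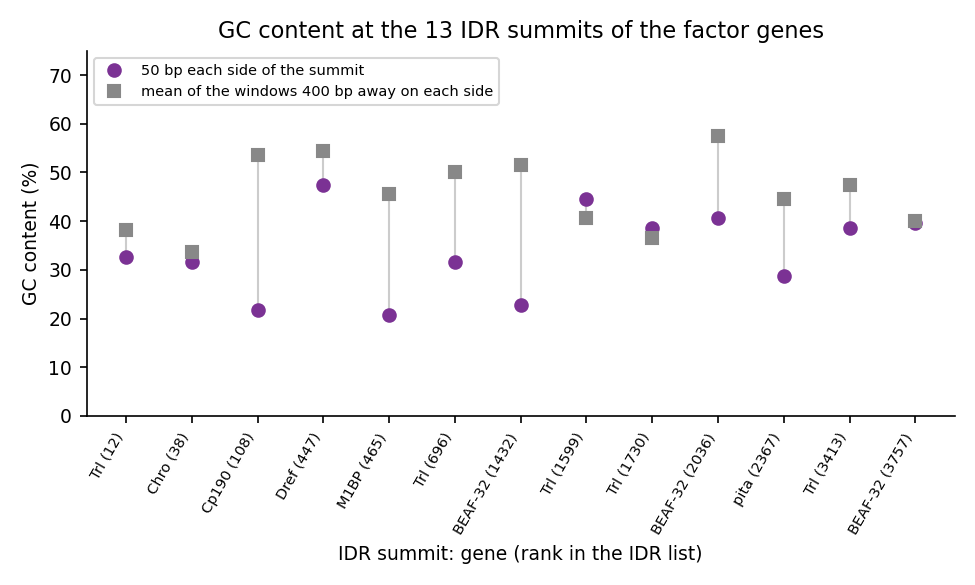
GC content (vertical axis, %) within 50 bp of each of the 13 IDR summits (purple circles) and in the windows 400 bp away (grey squares, mean of both sides), by gene and rank (horizontal axis). Purple lies below grey at 11 of the 13 summits, and M1BP and Cp190 have the lowest values at the summit, 20.8% and 21.8%.

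Other genes for insulator, architectural and promoter-binding proteins were bound at 14 of 29, against the 23.8% of all protein-coding genes given above. The highest was SA1, a gene for a subunit of the cohesin ring that holds chromatin loops, with a signal of 607 and a rank of 284 at 112 bp upstream of its TSS. In replicates 1 and 2 it ranked 304 and 269. The SA1 summit also lay within 500 bp of a TSS of Gas41. Next came row, with a signal of 540 and a rank of 328, and shep, which encodes an RNA-binding protein that modulates insulators, with a signal of 530 and a rank of 341. The kinase gene JIL-1, whose product modifies histone H3, followed at a signal of 212.

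The remaining 10 of the 14 had lower signals. The genes lolal, woc and psq had signals of 182, 180 and 180, and psq, like Trl, encodes a protein that binds GAGA sequences. The genes pzg, mod(mdg4) and Opbp had signals of 158, 144 and 126, and mod(mdg4) encodes a partner of su(Hw) at the gypsy insulator. The genes gfzf, l(3)mbt, Adf1 and Trf2 had signals of 125, 123, 118 and 117. The summits at pzg, gfzf, Adf1 and l(3)mbt also lay within 500 bp of a TSS of CG12974, Sas-4, Dpit47 and CG5934, in that order. The peak lists cannot tell which gene such a shared peak belongs to. Among the genes with no IDR promoter summit were Ibf1 and Ibf2, whose products act with Cp190, and which share a pooled promoter peak of rank 6881. No list placed a promoter summit at Elba1, Elba2 or Elba3, genes for subunits of an embryonic insulator complex. The chromatin came from whole flies, so binding in few cells may have been missed.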

How the data were processed

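Peak lists from 2 biological replicates of CG33017-GFP adult males were used. Per the text deposited with the samples, the authors called peaks on each replicate and on both together against 1 control alignment, on dm6, and derived the IDR list from these. The sources used here name no aligner, peak caller or IDR threshold. Each deposited peak has a signal, which the authors' files give with no stated scale, a −log10 q-value that was not used for ranking, and a summit offset. All 4867 IDR peaks are also in the pooled list. The members and lists were chosen with earlier results of these data known.

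Each summit (start plus offset) was compared with genes of BDGP6 in Ensembl release 115, without transposable elements, on arms 2L, 2R, 3L, 3R, 4 and X, with Python 3.11.15 and pandas 2.3.3. Peaks were ranked by signal within each list, since signals of separately made lists are not on 1 scale. Peaks overlapping by at least 1 bp were matched between lists. Where several peaks of a list overlapped an IDR peak, the strongest was taken. Shared genes have a TSS within 500 bp of a summit or a body that holds it. With 1 group and no untagged line no test was made, and counts are set beside those of all protein-coding genes. The text names every gene of the list, its IDR peaks and highest pooled peak, genes sharing an IDR summit, and bound genes of the other list; any other peak or gene was picked with its values in view. Of the 29 other genes, SA is annotated as SA1. Assignment was tested on simulated data, where 200 of 200 placed summits were recovered.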

Additional observations from a re-analysis of the deposited data

How the results depend on the processing

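The count of 6 genes with an IDR promoter summit was 5 at 250 bp from a TSS, where M1BP was lost, and 6 at 1000 bp, at peak midpoints, with protein-coding TSSs only and in the part of the IDR list above its median signal. It was 4 with the nearest TSS only, where Dref and M1BP were lost to their neighbours. Of all protein-coding genes, 19.8% were bound at 250 bp, 27.1% at 1000 bp, 17.9% with the nearest TSS only and 13.6% in the part above the median signal. The equal-sized list of either replicate alone gave 6, the same genes. With replicate 1 left out 24.1% of protein-coding genes were bound, and with replicate 2 left out 22.5% were. For the 29 other genes the count of 14 was 7 in that part, where 13.6% of protein-coding genes were bound, 10 with the nearest TSS only, and 12 to 13 with 1 replicate left out. The number of genes with an IDR summit in the body or flank was 6 with 500 bp and 8 with 5 kb, and it was 7 with either replicate left out. The share of all protein-coding genes was not counted at these other flanks, nor for the body or flank with a replicate left out. The 13 IDR peaks became 11 and 16 with these flanks, and 14 with either replicate left out. The 44 pooled peaks became 30 with 500 bp and 78 with 5 kb, and 42 to 53 with 1 replicate left out. For pita the highest promoter peak at 250 bp ranked 10130, against 5610. Read depth is unknown, so a peak missing from a list is not shown to be absent. No paired analysis was possible because there is 1 group.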

Other observations

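Some weaker sites differed between the replicates. At an inner TSS of Chro the pooled list held a peak of rank 5373, with the summit 51 bp upstream of it, and this site ranked 11872 in replicate 1 and 4178 in replicate 2. Past the 3' end of Chro a pooled peak of rank 5520 lay in a 5' UTR of the region shared by Arf1 and CG11109, and its site ranked 12537 in replicate 1 and 3664 in replicate 2. Past the 3' end of Cp190, in an intron of Zip88E, a pooled peak of rank 7459 was of rank 6216 in replicate 1 and 16118 in replicate 2.

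Of the 44 pooled peaks at the 10 genes, 13 lay past the 3' end, and each of these 13 lay in the body or within 500 bp of a TSS of another gene. Examples are ranshi beside M1BP, CG5850 beside Dref and qm beside CTCF. These peaks are counted for the 10 genes by distance alone.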
